A study of Mus musculus with 6 samples.

Results

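The 10 genes described here, Arg1, Arg2, Ass1, Asl, Odc1, Amd1, Srm, Sms, Oaz1 and Sat1, encode enzymes and a regulator of arginine and polyamine metabolism. They were found by gene name among the 33308 genes of the deposited table, each on 1 row, and all 10 were among the 13498 genes with a mean of at least 1 FPKM over the 6 libraries. FPKM is a read count scaled to gene length and library size. The set was chosen with this comparison in view, in which Arg1 was much lower in treated skin. The differences between treated and control skin are therefore given for these genes as a description, without a test.

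The samples were pieces of mouse skin: 3 from mice given osimertinib for 42 days and 3 from untreated control mice. Osimertinib is a kinase inhibitor that blocks mutant epidermal growth factor receptor in lung cancer, and the study concerns its effects on skin. Neither the strain, the age of the mice, the dose nor the day on which control skin was taken is given in the sources used here. Whether each sample is a different animal is not stated either. A p-value then reflects only how these samples vary, and that variation may be technical. In pieces of whole skin, fewer cells of a type and less RNA per cell cannot be told apart.

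Arginase splits arginine into urea and ornithine. Arg1 is the cytosolic form, best known from the urea cycle of the liver, and is also made by alternatively activated macrophages and by mouse epidermis, while Arg2 is the mitochondrial form. Ass1 and Asl run the other way and rebuild arginine from citrulline. Ornithine decarboxylase (Odc1) turns ornithine into putrescine, the first polyamine and the usual rate-limiting step, and its activity in skin is known from growing hair follicles and from the response to tumour promoters. Amd1 supplies the aminopropyl groups with which spermidine synthase (Srm) and spermine synthase (Sms) lengthen the chain. Antizyme (Oaz1) binds ornithine decarboxylase and delivers it to the proteasome, and Sat1 acetylates spermidine and spermine for breakdown or export.

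Libraries held 59877553 to 60719064 counts in treated skin and 54112624 to 57174797 in control skin. The keratins of basal epidermis, Krt5 and Krt14, were at 1914 FPKM or more in every treated library and 1365 FPKM or more in every control. Library composition differed: 20 skeletal muscle genes took 7.50%, 4.57% and 7.29% of the count in osimertinib 1, 2 and 3, and 4.73%, 13.9% and 0.0396% in control 1, 2 and 3. Levels compared between libraries below are CPM, counts relative to library size after scaling with TMM factors, which adjust for composition, and levels compared between genes are FPKM. Fold changes and their standard errors (SE) come from edgeR with n = 3 per group. Egfr, the drug's target gene in mice, averaged 81.0 ± 19.0 CPM in treated skin and 75.0 ± 16.6 CPM in control skin (SD, n = 3 each), a log2 fold change of 0.11 ± 0.25 (SE).

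The arginases differed in opposite directions. Arg1 (chromosome 10, 24915221 to 24927484, minus strand, 8 exons) was at 4.76, 3.91 and 1.56 CPM in osimertinib 1, 2 and 3, against 71.7, 38.6 and 72.4 CPM in control 1, 2 and 3. Every treated library lay below every control, and the lowest control was the muscle-rich control 2. The log2 fold change was −4.16 ± 0.51 (SE), a 17.9-fold lower level in treated skin, and only 10 of the 13498 genes had a lower fold change. Arg2 (chromosome 12, 79130777 to 79156301, plus strand, 8 exons) was at 8.05, 26.1 and 10.3 CPM in osimertinib 1, 2 and 3, against 1.48, 1.94 and 1.54 CPM in control 1, 2 and 3. The groups did not overlap, the controls lay close together, and osimertinib 2 stood above the other treated libraries. The log2 fold change of Arg2 was 3.16 ± 0.52 (SE), or 2.47 without osimertinib 2. The ends of Arg2 and Vti1b overlap by 285 bases on opposite strands, and since the use of strand in counting is not given in the sources used here, some Vti1b reads may be counted for Arg2. Vti1b held 4272 to 5235 counts in treated libraries and 4481 to 4797 in controls.

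**Figure D1:**
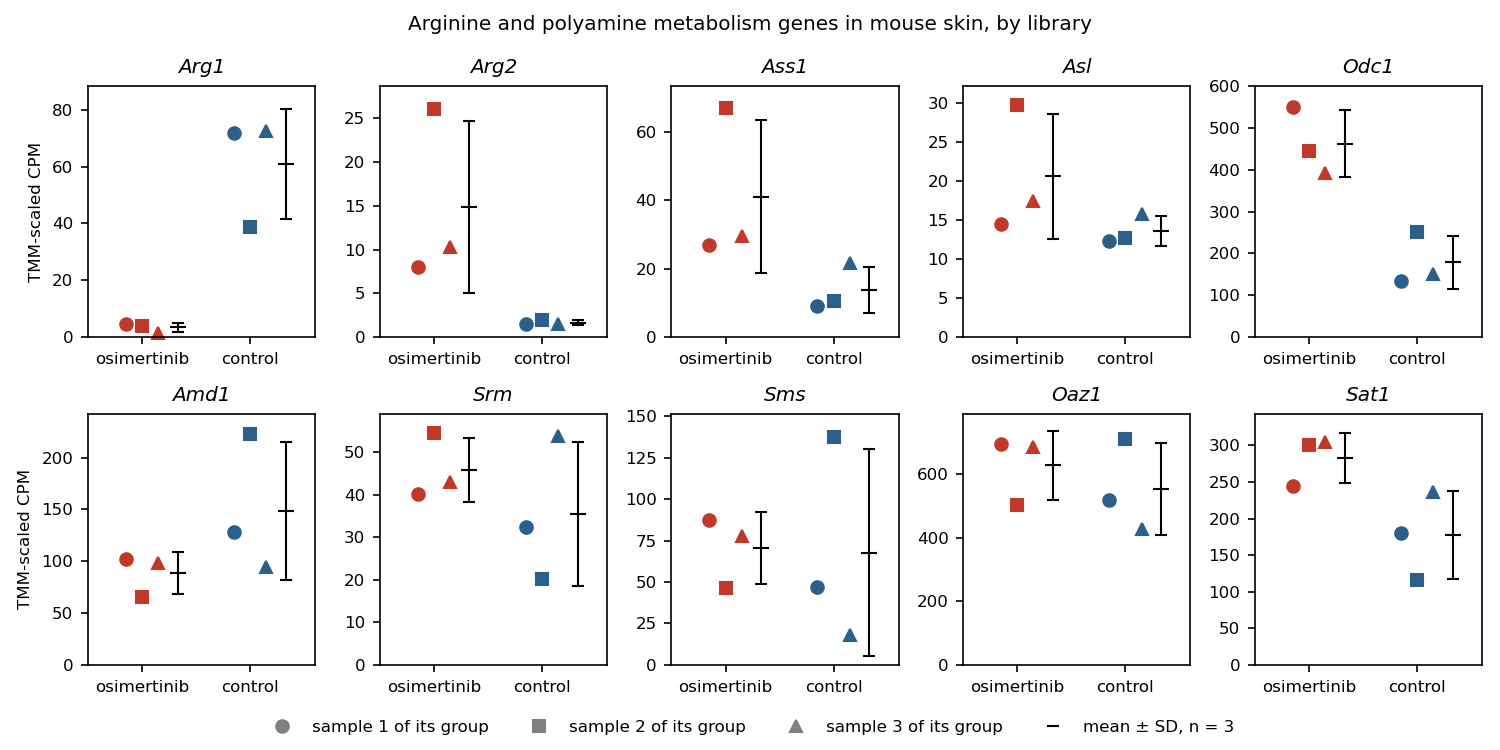
Level of each of the 10 genes in TMM-scaled CPM (linear axes from 0) in the 3 osimertinib libraries, red, and the 3 control libraries, blue, with mean ± SD beside them. Arg1 is below all controls in treated skin, and Arg2, Ass1, Odc1 and Sat1 are above all controls.

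Per unit of length, the mix of arginase transcripts differed more than their total. Arg1 and Arg2 together summed to 6.48, 18.4 and 6.87 FPKM in osimertinib 1, 2 and 3, and to 28.7, 12.7 and 31.8 FPKM in control 1, 2 and 3. The sums overlapped between the groups, since osimertinib 2 lay above control 2. Arg2 made up 72.7%, 91.3% and 91.3% of that sum in osimertinib 1, 2 and 3, against 3.09%, 7.25% and 3.21% in control 1, 2 and 3. In each treated library the mitochondrial form was thus the more abundant transcript, and in each control the cytosolic form was.

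**Figure D2:**
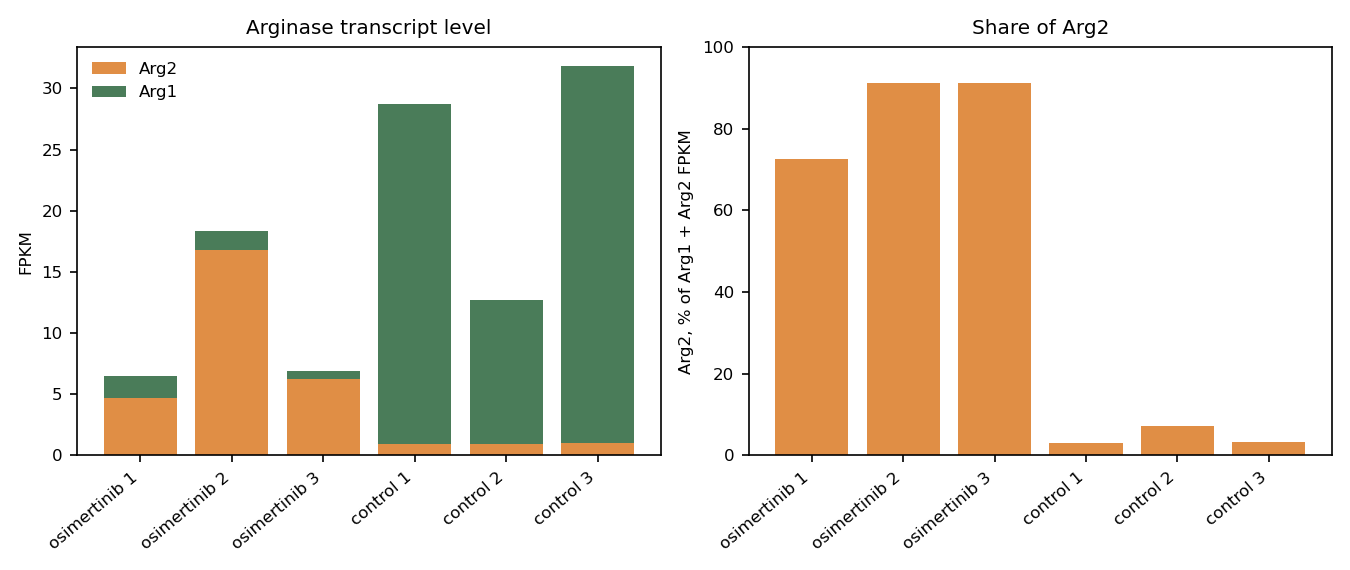
Left, Arg1 and Arg2 FPKM stacked for each library; right, Arg2 as a percentage of the sum of both. The share of Arg2 is 72.7% or more in the osimertinib libraries and 7.25% or less in the control libraries.

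Marker genes of cell types that can make Arg1 are given beside it by their values, since edgeR called none of them. Of 11 tested genes of granular and suprabasal keratinocytes, all 11 had a negative log2 fold change, with a median of −1.12 against −0.05 over all genes tested, and their summed level was 177 to 2114 FPKM in treated skin and 1132 to 3230 FPKM in control skin. In 1 of the 11, Tgm5, all treated libraries lay below all controls in CPM, where 9.38% of all tested genes did so. DESeq2 called 2 of the 11 lower and 0 higher, where it called 2.95% and 3.41% of all tested genes. Lists of other cell types had negative fold changes as well: 6 of 6 basal keratinocyte genes (median −1.09) and 10 of 10 adipocyte genes (median −0.81). On the granular and suprabasal list, Krt2 was not among the tested genes. It was listed at 0 in osimertinib 2 and was at most 0.629 FPKM elsewhere. Relative to Krt10, a keratin of the suprabasal layers, Arg1 was at 2.66, 4.98 and 8.61 FPKM per 1000 FPKM of Krt10 in osimertinib 1, 2 and 3, against 21.6, 34.1 and 26.0 in control 1, 2 and 3. That ratio did not overlap between the groups. Relative to Lor, which encodes the cornified envelope protein loricrin, Arg1 was at 1.63, 3.74 and 16.3 per 1000 FPKM of Lor in osimertinib 1, 2 and 3, and at 18.6, 19.98 and 24.3 in control 1, 2 and 3. Osimertinib 3, which had the lowest Krt10 and Lor of all libraries, came close to the controls in this ratio.

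Among 8 genes that accompany Arg1 in alternatively activated macrophages, 7 were tested and all 7 had a negative log2 fold change, with a median of −0.67. In 3 of the 7 (Retnla, Cd163 and Ccl24) all treated libraries lay below all controls in CPM, where 9.38% of all tested genes did so. Retnla, a secreted resistin-like protein of these cells, was at 30.9, 15.5 and 19.8 FPKM in osimertinib 1, 2 and 3. In control 1, 2 and 3 it was at 130, 35.1 and 65.0 FPKM. Its log2 fold change was −1.82 ± 0.49 (SE, edgeR adjusted p = 0.258, DESeq2 adjusted p = 0.0087). Of the 7, DESeq2 called Retnla alone, as lower, where it called 2.95% of all tested genes lower. Chil3, another marker of these cells, was at 0.0997 to 0.297 FPKM in treated skin and 0.0312 to 0.175 FPKM in control skin. Of 9 tested general macrophage genes, 4 had a positive and 5 a negative log2 fold change, with a median of −0.02, and Adgre1 (F4/80) was at 1.04 to 3.94 FPKM in treated and 1.91 to 3.18 FPKM in control skin. The ratio of Arg1 to Retnla was 0.0573, 0.103 and 0.0302 in osimertinib 1, 2 and 3, and 0.214, 0.336 and 0.474 in control 1, 2 and 3, so Arg1 was lower relative to this marker as well. The part of either cell type in the Arg1 difference was not tested.

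Beside Arg2, several marker lists had higher levels in treated skin, among them the hair matrix, the proliferating base of the growing follicle. The summed level of 9 hair matrix genes was 91.2, 265 and 103 FPKM in osimertinib 1, 2 and 3, and 26.9, 19.3 and 27.4 FPKM in control 1, 2 and 3, and 8 of the 9 had a positive log2 fold change (median 3.50). The matrix ligand Shh was listed at 0 in control 1. Osimertinib 2 was highest and osimertinib 1 lowest of the treated libraries both in this sum and in Arg2. All 16 proliferation genes tested were positive too (median 1.01), with the same order of the treated libraries, at 164, 256 and 201 FPKM in osimertinib 1, 2 and 3. All 17 tested genes of the hair shaft and inner root sheath were positive (median 4.75), with sums of 599.5, 3819 and 403 FPKM in osimertinib 1, 2 and 3, against 3.30, 130.5 and 3.802 FPKM in control 1, 2 and 3. The 3 tested genes of a list of 9 neutrophil genes were positive as well (median 4.12). Csf3r, Cxcr2, Ly6g, Retnlg, Mpo and Elane of that list did not pass the filter. S100a8 and S100a9, which were tested, are also on a list of wound and stress keratinocyte genes. They were at 112 and 173 FPKM in osimertinib 1, so the sums cannot be assigned to neutrophils alone. The list summed to 288, 102 and 827 FPKM in osimertinib 1, 2 and 3, and was thus lowest in osimertinib 2. In control 1, 2 and 3 it summed to 0.636, 21.4 and 32.5 FPKM. The ratio of Arg2 to the matrix transcription factor Msx2 was 0.419, 0.466 and 0.476 in treated skin and 1.03, 0.567 and 0.794 in control skin, so Arg2 differed between the groups by less than Msx2 did. Relative to Wnt10b, another gene of the matrix list, Arg2 overlapped between the groups, at 0.637 to 1.04 in treated and 0.665 to 1.93 in control skin. The part of any of these cell types in the Arg2 difference was not tested.

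**Figure D3:**
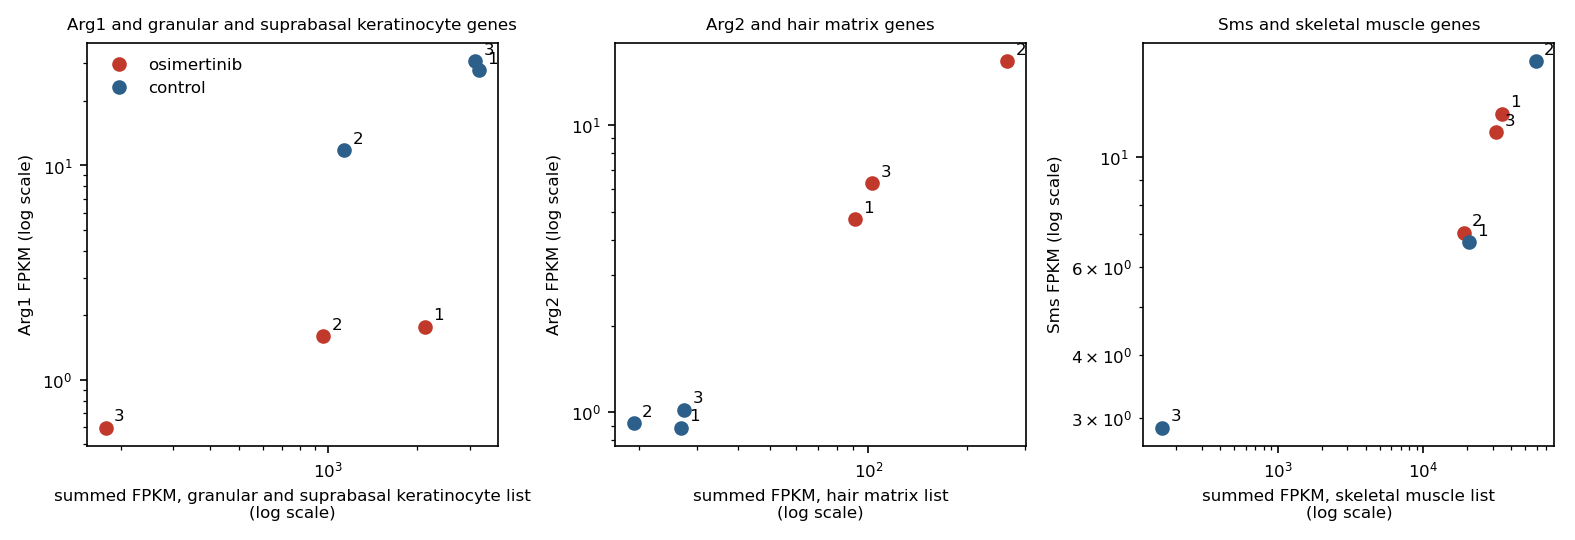
FPKM of Arg1, Arg2 and Sms (log axes) against the summed FPKM of a marker list in the same library (log axes), with osimertinib libraries in red, controls in blue and the number of the library beside each point. Osimertinib 2 and control 2 have similar suprabasal sums, and Arg1 is lower in osimertinib 2, Arg2 is high where hair matrix genes are high, and Sms is lowest in control 3, which held the least muscle.

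The enzymes that rebuild arginine were both higher on average, Ass1 by more. Ass1 (chromosome 2, 31470207 to 31520672, plus strand, 16 exons) was at 26.8, 66.9 and 29.6 CPM in osimertinib 1, 2 and 3, against 9.24, 10.4 and 21.6 CPM in control 1, 2 and 3. The groups did not overlap, and control 3 was the highest control. Its log2 fold change was 1.58 ± 0.50 (SE), or 1.04 without osimertinib 2. Asl (chromosome 5, 130011258 to 130025019, minus strand), which completes the step, was at 14.5, 29.7 and 17.4 CPM in osimertinib 1, 2 and 3, against 12.3, 12.7 and 15.8 CPM in control 1, 2 and 3, with a log2 fold change of 0.59 ± 0.31 (SE). Here the groups overlapped, and the value was 0.23 without osimertinib 2. Arg2, Ass1 and Asl thus shared the same order in treated skin, with osimertinib 2 highest and osimertinib 1 lowest. The ratio of Ass1 to Asl was 3.71, 4.51 and 3.40 in treated libraries and 1.497, 1.65 and 2.74 in control libraries.

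Reads of Ass1 can fall on a near-identical copy. Of all 100-base windows of the Ass1 transcripts in the annotation, 26.9% also occur in Gm5424, which has its own row in the table with 759, 1920 and 892 counts in osimertinib 1, 2 and 3, and 378, 305 and 709 counts in control 1, 2 and 3. Gm5424 had a log2 fold change of 1.21 ± 0.40 (SE). Ass1 and Gm5424 together were at 39.9, 96.8 and 44.1 CPM in treated skin and 16.1, 17.2 and 32.8 CPM in control skin, and the groups did not overlap in the sum either.

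Odc1 was the polyamine enzyme with the widest difference. Odc1 (chromosome 12, 17544794 to 17551084, plus strand, 12 exons) was at 549.8, 445 and 391.9 CPM in osimertinib 1, 2 and 3, against 134, 252 and 150 CPM in control 1, 2 and 3. All treated libraries lay above all controls, by a wide margin for controls 1 and 3 and a smaller one for control 2. The log2 fold change was 1.37 ± 0.32 (SE), 2.59-fold higher in treated skin, and stayed between 1.20 and 1.72 when any 1 library was left out. Of the 100-base windows of Odc1 transcripts, 10.1% also occur in other genes, among them Gm7993. The sum of Odc1 and Gm7993 averaged 466 ± 81.2 CPM in treated and 181 ± 64.4 CPM in control skin (SD, n = 3 each), and the groups did not overlap. Unlike Arg2 and Ass1, which were highest in osimertinib 2, Odc1 was highest in osimertinib 1. Beside it, all 16 proliferation genes tested had a positive log2 fold change (median 1.01), with summed levels of 164 to 256 FPKM in treated skin and 58.5 to 160 FPKM in control skin. The ratio of Odc1 to the proliferation marker Mki67 overlapped between the groups, at 5.68 to 11.3 in treated and 3.62 to 13.7 in control libraries. The part of proliferating cells in the Odc1 difference was not tested.

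Odc1 and Ass1 were both higher in treated skin, and their promoters are shown to compare what lies before the RefSeq transcription start. RefSeq promoter windows on GRCm38.p6 were matched for 6 of the 10 genes, Ass1, Amd1, Oaz1, Odc1, Sat1 and Sms. The lines below run 5′ to 3′ from 250 bases before the start to 30 after it, and capitals mark matches on either strand to the GC box letters GGGCGG or to the E-box letters CACGTG (Odc1, chr12:17544623-17544902, plus strand; Ass1, chr2:31470020-31470299, plus strand).
Odc1: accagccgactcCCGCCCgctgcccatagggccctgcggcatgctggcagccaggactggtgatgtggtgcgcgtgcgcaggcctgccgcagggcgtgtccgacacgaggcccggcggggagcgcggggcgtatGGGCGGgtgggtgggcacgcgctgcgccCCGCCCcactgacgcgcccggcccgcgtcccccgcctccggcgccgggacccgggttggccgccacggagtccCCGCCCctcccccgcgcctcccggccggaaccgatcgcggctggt
Ass1: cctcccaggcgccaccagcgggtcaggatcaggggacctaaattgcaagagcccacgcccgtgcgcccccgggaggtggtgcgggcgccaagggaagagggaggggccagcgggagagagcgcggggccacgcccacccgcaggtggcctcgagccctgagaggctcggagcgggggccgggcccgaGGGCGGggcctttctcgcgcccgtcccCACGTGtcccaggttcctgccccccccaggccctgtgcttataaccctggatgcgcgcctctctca
Odc1 had 4 matches to the GC box, at positions −238, −116, −88 and −15 counted from the RefSeq start. Ass1 had 1, at position −63. The RefSeq starts lie downstream of the deposited gene starts, 17544794 for Odc1 and 31470207 for Ass1. By those deposited starts, the Odc1 match at −15 and the marked matches of Ass1 fall within the genes. Among all 32851 promoter windows, 35.7% hold that motif at least once. The E-box, the site bound by Myc family proteins, occurred once in Ass1 at position −36, was not among the letters of the Odc1 window, and is held by 7.15% of all windows. The motifs searched do not overlap each other in these windows. Such matches describe the letters of the windows only, and sequence outside the windows was not searched.

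Antizyme, the brake on ornithine decarboxylase, differed little. Oaz1 (chromosome 10, 80826656 to 80829290, plus strand) was at 694, 502 and 685 CPM in osimertinib 1, 2 and 3, against 519, 712 and 427 CPM in control 1, 2 and 3. The groups overlapped, with control 2 the highest library of all, and the log2 fold change was 0.18 ± 0.29 (SE). In FPKM there were 0.595, 0.666 and 0.430 Odc1 transcripts per Oaz1 transcript in osimertinib 1, 2 and 3, against 0.193, 0.265 and 0.265 in control 1, 2 and 3. This ratio did not overlap between the groups and averaged 0.564 ± 0.121 in treated and 0.241 ± 0.0414 in control skin (SD, n = 3 each). The pseudogene Oaz1-ps, which shares 14.5% of the 100-base windows of Oaz1, held 3.17% to 3.29% as many counts as Oaz1 in treated libraries and 3.55% to 3.67% in controls.

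Amd1, which decarboxylates S-adenosylmethionine to provide the aminopropyl groups, was on average lower. Amd1 (chromosome 10, 40287458 to 40302186, minus strand, 8 exons) was at 102, 65.2 and 98.4 CPM in osimertinib 1, 2 and 3, against 128, 223 and 94.8 CPM in control 1, 2 and 3. The groups overlapped in CPM, through control 3, but not in FPKM, where treated libraries were at 16.9 to 24.2 and controls at 25.3 to 42.7. The log2 fold change was −0.75 ± 0.36 (SE), or −0.31 without control 2, the library richest in muscle. Together with Odc1 this gave 5.60, 7.11 and 4.15 Odc1 transcripts per Amd1 transcript in osimertinib 1, 2 and 3, against 1.09, 1.17 and 1.65 in control 1, 2 and 3.

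Counts of Amd1 are uncertain because most of its sequence has a copy elsewhere. Of the 100-base windows of Amd1 transcripts, 67.1% also occur in Amd2 or in an Amd pseudogene. Amd2 lies on the same chromosome, and its transcript start shows the copying directly. The lines below run 5′ to 3′ from 120 bases before the start to 30 after it, from the RefSeq windows, and capitals mark the letters of a stretch of 48 bases shared by the full windows (Amd1, chr10:40302159-40302308, minus strand; Amd2, chr10:35711862-35712011, minus strand).
Amd1: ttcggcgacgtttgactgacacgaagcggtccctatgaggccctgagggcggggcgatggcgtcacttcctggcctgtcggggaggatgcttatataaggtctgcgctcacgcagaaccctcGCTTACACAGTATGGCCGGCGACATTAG
Amd2: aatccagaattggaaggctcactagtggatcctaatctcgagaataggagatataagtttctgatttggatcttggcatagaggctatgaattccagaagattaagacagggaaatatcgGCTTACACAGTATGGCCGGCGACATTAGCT
The shared stretch begins at the start of Amd2 and 2 bases after the start of Amd1, and before it the 250 aligned bases were identical at 25.2% of positions. Amd2 held 969 to 1456 counts in treated libraries and 1282 to 1841 in controls, with a log2 fold change of −0.51 ± 0.31 (SE). Summed over Amd1, Amd2 and the pseudogenes Amd-ps3 and Amd-ps4, the level was 126, 81.3 and 124 CPM in treated skin and 153, 267 and 118 CPM in control skin, which overlapped.

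The synthases that follow varied more within the controls than between the groups. Srm (chromosome 4, 148591503 to 148594619, plus strand) was at 40.04, 54.4 and 43.0 CPM in osimertinib 1, 2 and 3, and at 32.4, 20.2 and 53.6 CPM in control 1, 2 and 3. Its log2 fold change was 0.37 ± 0.36 (SE), and the treated values lay within the control range but for osimertinib 2. Sms (chromosome X, 157443855 to 157492287, minus strand) was at 87.6, 46.1 and 77.7 CPM in osimertinib 1, 2 and 3, and at 47.0, 138 and 18.2 CPM in control 1, 2 and 3. The treated libraries all lay between the lowest and the highest control, and the log2 fold change was 0.06 ± 0.70 (SE).

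Within the controls the synthases ran in opposite orders. Sms was highest in control 2 and lowest in control 3, a 7.56-fold range against a median of 1.599-fold over all tested genes, and the skeletal muscle genes had the same order. Srm was lowest in control 2 and highest in control 3, a 2.65-fold range, the reverse of the muscle order. In FPKM, Srm per Sms was therefore 2.59, 0.552 and 11.1 in control 1, 2 and 3, beside 1.72, 4.43 and 2.08 in osimertinib 1, 2 and 3. With a skeletal muscle score as a covariate the log2 fold change was −0.21 ± 0.33 (SE) for Sms and 0.79 ± 0.19 (SE) for Srm. That of Srm was 0.11 without control 2 and 0.81 without control 3. The fold change of Sms depended on single libraries: it was 1.14 without control 2 and 0.29 without osimertinib 2, and it was −0.41, −0.15, −0.13 and −0.03 without control 3, control 1, osimertinib 1 and osimertinib 3. The pseudogene Sms-ps held 16.3% to 23.1% as many counts as Sms in treated libraries and 20.5% to 24.6% in controls, and the sum of both averaged 83.7 ± 23.8 CPM in treated and 83.9 ± 77.8 CPM in control skin (SD, n = 3 each).

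Sat1, the acetyltransferase that starts polyamine breakdown, was modestly higher. Sat1 (chromosome X, 155213132 to 155216449, minus strand) was at 244, 301 and 305 CPM in osimertinib 1, 2 and 3, against 180, 117 and 236 CPM in control 1, 2 and 3. The groups were just separate in CPM and overlapped in FPKM, where osimertinib 1 was at 73.6 and control 3 at 80.6. The log2 fold change was 0.67 ± 0.30 (SE). Sms and Sat1 lie on the X chromosome, and all 6 libraries had Xist at 0.0115 FPKM or less and the Y-linked Ddx3y at 5.62 FPKM or more. The 4 tested sex-linked genes had negative log2 fold changes (median −0.34). In 2 of them all treated libraries lay below all controls in CPM, where 9.38% of all tested genes did so.

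By level, the regulator and the enzymes at the ends of the pathway were the most abundant. In control skin the mean FPKM was 174 for Oaz1, 55.1 for Sat1, 42.0 for Odc1, 33.1 for Amd1, 23.4 for Arg1, 19.3 for Srm, 8.39 for Sms, 4.90 for Ass1, 2.36 for Asl and 0.942 for Arg2. Among these, Sat1, Odc1, Amd1, Arg1 and Srm had overlapping ranges with their neighbours in the order, as did Srm with Sms, Sms with Ass1, and Ass1 with Asl, whereas Oaz1 stood above all and Arg2 below all. In treated skin the order was Oaz1 at 213, Odc1 at 118, Sat1 at 89.5, Srm at 25.2, Amd1 at 21.7, Ass1 at 15.1, Sms at 10.1, Arg2 at 9.25, Asl at 3.76 and Arg1 at 1.32 FPKM. Neighbours in this order had overlapping ranges from Srm down to Asl, while Oaz1, Odc1, Sat1 and Arg1 were separate from their neighbours. Arg1 was thus in 5th place in controls and last in treated skin, and Odc1 stood above Sat1 in every treated library. The 10 genes together summed to 512, 504 and 507 FPKM in osimertinib 1, 2 and 3, and to 355, 352 and 384 FPKM in control 1, 2 and 3. Odc1 accounted for 26.4%, 23.8% and 19.7% of that sum in treated libraries and 9.55%, 14.2% and 10.9% in controls.

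Over all 13498 genes edgeR called none at an adjusted p under 0.05, which is 0% higher and 0% lower, and so none of the 10. At an unadjusted p under 0.05 it took 975 genes as higher (7.22%) and 908 as lower (6.73%). DESeq2, run as an alternative, called 460 genes higher (3.41%) and 398 lower (2.95%), among them Arg2, Ass1 and Odc1 as higher and Arg1 as lower. In 4 of the 10 genes all treated libraries lay above all controls in CPM, and in 1 all lay below, where 11.3% and 9.38% of all tested genes did so. Since the genes were chosen from this comparison, nothing is read from these counts. Of the 10 log2 fold changes 8 were positive, with a median of 0.48.

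**Figure D4:**
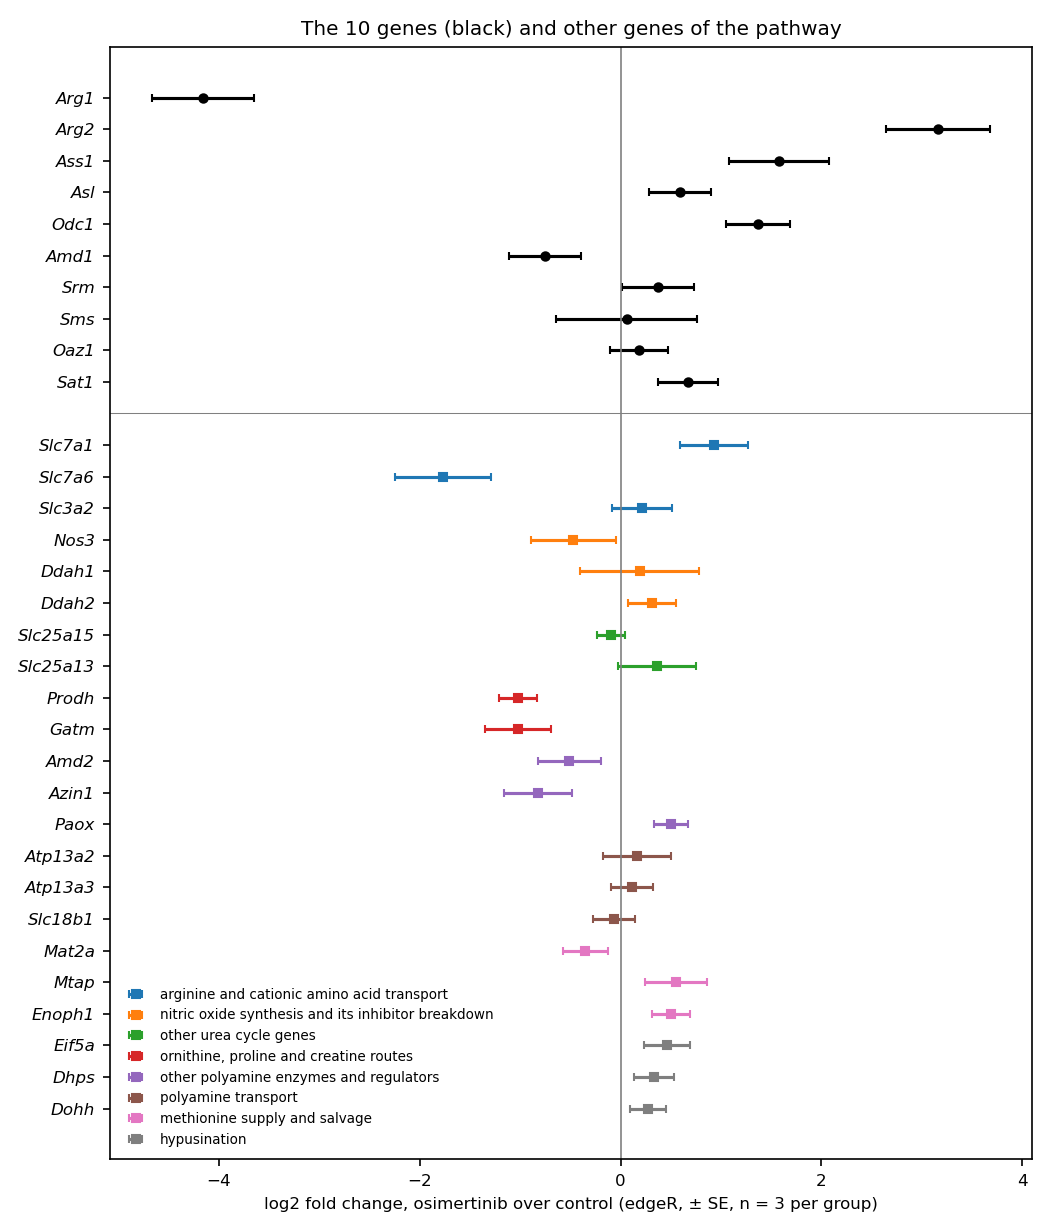
Log2 fold change of osimertinib over control (edgeR, ± SE, n = 3 per group) for the 10 genes, in black, and for up to 3 genes with the smallest p of each of 8 lists of related genes, in colour. Arg1, Arg2, Ass1 and Odc1, at −4.16, 3.16, 1.58 and 1.37, lie outside the range of the related genes, −1.77 for Slc7a6 to 0.93 for Slc7a1.

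Around these genes, 53 further gene names of arginine and polyamine metabolism were examined in 8 lists. Of these, 51 were matched, Pycr3 is a second name of the matched Pycrl, Otc was not analysed here, and 39 passed the filter of a mean of 1 FPKM. EdgeR called 0 of the 39, with 23 positive and 16 negative fold changes, a median log2 fold change of 0.16 and a smallest adjusted p of 0.180. DESeq2 called 1 of the 39 higher and 3 lower, where it called 3.41% and 2.95% of all tested genes. In 6 of the 39 all treated libraries lay above all controls in CPM and in 5 all lay below, beside 11.3% and 9.38% of all tested genes, so the counts of separate groups are near the background. Since edgeR called none, the genes below are given by their values.

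Ornithine that does not enter polyamines can go to proline, and arginine can go to creatine. Prodh, which starts proline breakdown, was at 2.41, 2.42 and 1.99 FPKM in osimertinib 1, 2 and 3, against 4.45, 3.02 and 5.90 FPKM in control 1, 2 and 3. All treated libraries were lower (log2 fold change −1.02 ± 0.19 (SE), edgeR adjusted p = 0.180, DESeq2 adjusted p = 6.00e-05). Gatm, the first enzyme of creatine synthesis, was at 1.84, 1.09 and 1.92 FPKM in osimertinib 1, 2 and 3, against 3.97, 2.06 and 3.53 FPKM in control 1, 2 and 3 (log2 fold change −1.02 ± 0.33 (SE), edgeR adjusted p = 0.290, DESeq2 adjusted p = 0.0489). Here too the groups did not overlap. Of the 10 tested genes of this list, 4 were positive and 6 negative.

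Among arginine transporters, Slc7a1 and Slc7a6 differed in opposite directions. Slc7a6, an exchanger of cationic and neutral amino acids, was at 12.6, 9.71 and 7.94 FPKM in osimertinib 1, 2 and 3, against 36.0, 11.6 and 56.9 FPKM in control 1, 2 and 3. The groups overlapped in FPKM, where control 2 lay below osimertinib 1, and did not overlap in CPM (log2 fold change −1.77 ± 0.48 (SE), edgeR adjusted p = 0.257, DESeq2 adjusted p = 0.00664). Slc7a1, the main cationic amino acid transporter of many cells, was at 2.82, 3.61 and 2.55 FPKM in osimertinib 1, 2 and 3, against 1.54, 0.710 and 2.42 FPKM in control 1, 2 and 3 (log2 fold change 0.93 ± 0.34 (SE), edgeR adjusted p = 0.322). Among nitric oxide synthases, which compete with arginase for arginine, Nos2 did not pass the filter, at 0.163 to 0.444 FPKM in treated and 0.0637 to 0.141 FPKM in control skin. Nos3, the endothelial form, had a log2 fold change of −0.47 ± 0.42 (SE, edgeR adjusted p = 0.684). Nos1 was at 3.03 to 4.39 FPKM in treated and 0.0209 to 6.16 FPKM in control skin, lowest in control 3. Its log2 fold change was 0.14 ± 1.44 (SE, edgeR adjusted p = 0.985). The liver urea cycle gene Cps1 was at 0.0176 to 0.112 FPKM in treated skin and at most 0.00739 FPKM in control skin.

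Other polyamine genes had smaller differences. Azin1, the antizyme inhibitor that frees ornithine decarboxylase, was at 12.1, 9.27 and 8.57 FPKM in osimertinib 1, 2 and 3, and at 25.2, 8.63 and 18.0 FPKM in control 1, 2 and 3, with overlapping groups (log2 fold change −0.82 ± 0.34 (SE), edgeR adjusted p = 0.358). Paox, an oxidase of acetylated polyamines, had a log2 fold change of 0.50 ± 0.17 (SE) with separate groups (edgeR adjusted p = 0.315). The 3 tested polyamine transport genes Atp13a2, Atp13a3 and Slc18b1 lay between −0.07 and 0.16. In the methionine salvage list, Enoph1 had separate groups in CPM with a log2 fold change of 0.50 ± 0.19 (SE, edgeR adjusted p = 0.341). Spermidine is also used to make hypusine on the translation factor Eif5a, and all 3 tested genes of that list were positive. Eif5a was at 339, 388 and 324 FPKM in osimertinib 1, 2 and 3, against 248, 181 and 306 FPKM in control 1, 2 and 3, with separate groups (log2 fold change 0.46 ± 0.23 (SE), edgeR adjusted p = 0.439, DESeq2 adjusted p = 0.0281).

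The genes whose pattern over the 6 libraries was nearest to that of Arg1, by Pearson correlation of log2 CPM, were Pigg and Zfp68 (r = 0.995 each), Best2 (0.992), Angptl7 (0.991) and Gtpbp2 (0.988). These values describe 6 libraries in 2 groups, and any gene with the same group difference scores high. Angptl7, a secreted angiopoietin-like protein, was at 0.466, 0.718 and 0.205 FPKM in osimertinib 1, 2 and 3, against 21.4, 12.5 and 37.2 FPKM in control 1, 2 and 3. Its log2 fold change of −5.70 ± 0.57 (SE) exceeded that of Arg1 in size, while Pigg, Zfp68 and Gtpbp2 differed by only −0.72, −0.34 and −0.39.

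**Figure D5:**
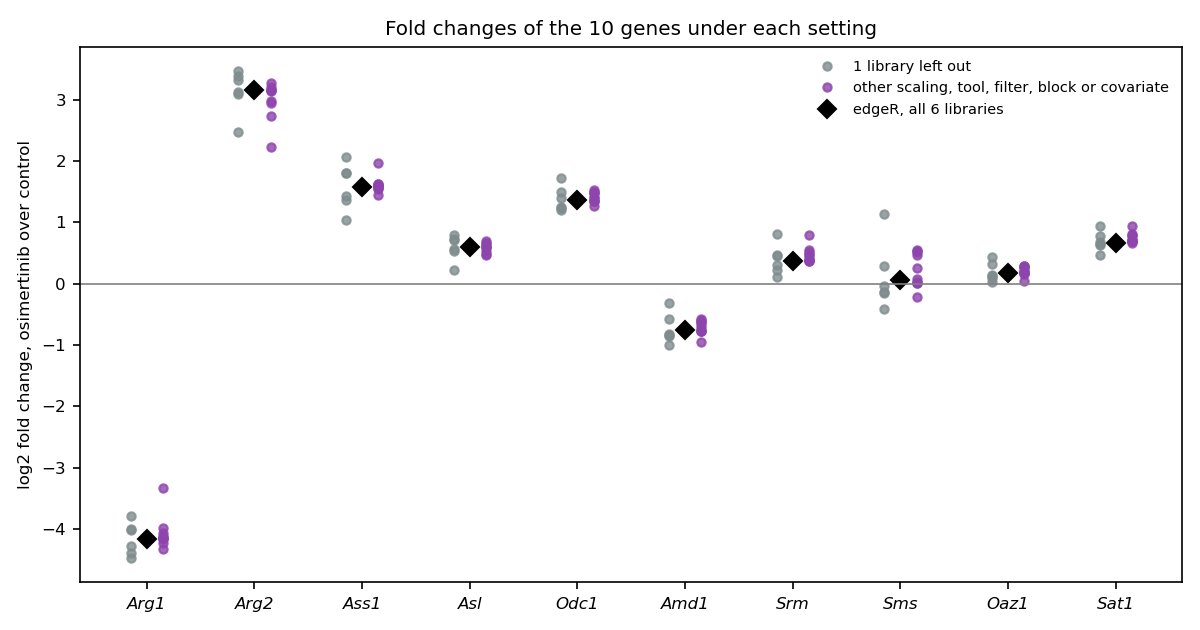
Log2 fold change of osimertinib over control for the 10 genes under each setting: edgeR on all 6 libraries (black diamonds), with 1 library left out (grey) and with another scaling, tool, filter, replicate block or muscle covariate (purple). Arg1 and Amd1 stay below 0 and Arg2, Ass1, Asl, Odc1, Srm, Oaz1 and Sat1 stay above 0 in every setting run, while Sms crosses 0.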

How the data were processed

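Poly(A) RNA of mouse skin was read in pairs from dUTP-marked libraries whose adapters carried molecular identifiers, per the labels' protocols. The submitters' processing notes name cutadapt 1.9 and GRCm38. Which aligner, counter and annotation were used, and how strand and identifiers were treated, is not given in the sources used here. Per the file headers, the authors deposited a read count (whole numbers, unnormalized) and an FPKM value for each gene and sample. A further 6 value columns match no sample and were not used.

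Genes averaging 1 FPKM or more were tested with edgeR 4.0.16 in R 4.3.3 (quasi-likelihood test, TMM, two-sided, Benjamini-Hochberg over all tested genes, threshold 0.05). SE was derived from the log2 fold change and its F statistic. The test was first run on simulated counts. Alternatives were DESeq2 1.42.0, limma 3.58.1, other scalings and filters, a replicate block, a muscle covariate and leaving out each library. Gene coordinates are those of the deposited table on GRCm38, promoter coordinates are those of the RefSeq windows, and exon counts come from GENCODE release M21 principal transcripts.

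The 10 genes, the pathway and marker lists and the naming rule were chosen with earlier results of these data known. The rule named all 10 genes, up to 3 genes with the smallest p of each list, Amd2, Egfr and the 5 genes most like Arg1, of which 1 list gene is not reported here. Other genes given with values (such as Nos2, Cps1, Krt10 and Vti1b) were chosen after their values were seen.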

Additional observations from a re-analysis of the deposited data

How the results depend on the processing

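EdgeR called 0 genes higher and 0 lower in all 6 libraries. With limma on log2(FPKM + 1) 12 genes were called higher and 5 lower, with limma on log2(FPKM + 0.1) 1 and 1, and with DESeq2 460 and 398. Lower calls alone numbered 1 with library totals, 3 with quantile normalization, 2 with genes averaging 5 FPKM or more and 1 with the muscle covariate. Leaving out any 1 library gave 0 and 0. Of the 10 genes, DESeq2 called 3 higher and 1 lower, and the other settings called 0. Sample numbers were not shown to pair the samples, since the deviations of same-numbered samples correlated at 0.222, 0.029 and −0.115. The replicate block gave 0 calls in either direction, with Arg1 at −4.23, Arg2 at 2.97 and Odc1 at 1.41.

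Arg1 ranged between −4.47 and −3.33 and Arg2 between 2.22 and 3.46, with the smallest size of each under limma on log2(FPKM + 1), whose pseudocount shrinks low values. Ass1 ranged between 1.04 and 2.07 and Amd1 reached −0.31 without control 2. Sms kept its sign in 11 of 16 settings. Signs also turned for related genes near 0: Ddah1 was −0.11 with the muscle covariate, −0.13 without osimertinib 3 and −0.23 without control 3, Atp13a2 was −0.32 without osimertinib 2, Atp13a3 was −0.01 with the muscle covariate and −0.03 without control 3, and Slc18b1 was 0.01 and 0.02 with limma at pseudocounts of 1 and 0.1 and 0.04 without control 2. With 1 library left out, Ddah1 lay between −0.23 and 0.79, Atp13a2 between −0.32 and 0.38, Atp13a3 between −0.03 and 0.36 and Slc18b1 between −0.15 and 0.04. The cause of these turns was not tested. With 3 samples per group, the smallest exact two-sided p for a single value is 0.1.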
